A study of Mus musculus with 12 samples.

Results

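The genes described here are 10 that mark entry into the granulocyte and monocyte lineages. They are Mpo, Elane, Prtn3 and Ctsg, whose products fill the primary granules of neutrophil precursors, the lysozyme genes Lyz1 and Lyz2, the cytokine receptor genes Csf3r and Csf1r, and the transcription factor genes Cebpa and Cebpe. They were chosen by name, and a gene was measured where a probe set of the array is annotated to that gene alone. This held for 9 of the 10 genes, among 18193 genes in all, and Cebpe was not analysed here. Where a gene had several such probe sets, the one of highest mean log2 signal over the 12 arrays was used, with the others given beside it. Of the 9 genes 8 also passed a filter on dim probe sets, signals above the array's median on at least 3 arrays, and were tested among 12083 genes. Csf1r did not pass and is given by its signals.

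Haematopoietic stem cells (HSCs) renew themselves and give rise to every type of blood cell. Their total RNA, from sorted bone marrow, was hybridised to 12 Affymetrix arrays, 3 biological replicates in each of 4 groups. Wild-type mice and mice labelled NrasG12D/+, which carry 1 mutant allele of the small GTPase Nras beside a normal one, each gave a GFP- population, labelled cycling, and a GFPhigh population, labelled quiescent. All mice, controls included, drank doxycycline for 6 weeks and were sampled 12 weeks after its removal. Below, groups are named by genotype and population, such as Nras GFPhigh. The transgenes behind the GFP label, the way the Nras allele was switched on, the surface markers of the sort, the ages and any pooling of animals are not given in the sources used here.

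Primary granules form first in granulocyte development, at the promyelocyte stage, and hold myeloperoxidase and a family of serine proteases. Low transcript levels of such genes before a cell has committed to the lineage are known as myeloid priming, and multipotent progenitors are known to show it. Cebpa acts at the step to granulocyte and monocyte progenitors and Cebpe in later granulocyte maturation, when the secondary granules form. The comparisons asked whether these transcripts differed between HSCs labelled quiescent and cycling and between Nras and wild-type HSCs. RNA of sorted populations was measured, so more cells with a transcript and more transcript per cell cannot be told apart.

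Array medians ran from 44 to 129.6 in MAS5 units, in which every signal below is given. On 4 arrays, wild-type GFPhigh replicate 2, Nras GFP- replicate 1 and Nras GFPhigh replicates 1 and 2, limma's array weight was 0.308 to 0.522, against 0.903 to 2.46 on the other 8, and they are called the uneven arrays. Leaving them out keeps replicate 3 alone in the Nras GFPhigh group. Replicate 3 of every group read 91.8 to 205.1 for Xist, which silences an X chromosome in female cells, and the others read 5773 to 11481. The 3' to 5' signal ratio of Gapdh, which goes up with RNA degradation, was 2.57 to 7.28, highest in Nras GFPhigh replicate 1 and next in replicate 3 of that group (5.70). Of 8 HSC markers measured, all were above the array's median on 11 arrays and 7 on Nras GFP- replicate 2. Nras itself read 1250.2 to 4274.8, which is no check of the genotype, since a probe set does not tell the mutant allele from the normal one.

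None of the 8 tested genes differed between groups in any of the 7 comparisons at a Benjamini-Hochberg adjusted p under 0.05 in limma. Over all genes that threshold called 0% in 6 of the comparisons and 0.00828% (1 gene, Gem, which encodes a small GTPase) between Nras and wild-type over both populations. At an unadjusted p under 0.05 no member passed in wild-type GFPhigh against GFP- (2.2% of all genes), and Lyz2 passed in Nras GFPhigh against GFP- (12.2%). Elane and Csf3r passed between Nras and wild-type in GFP- cells (4.39%), and Prtn3, Lyz1 and Lyz2 in GFPhigh cells (8.29%). None passed for the interaction of genotype and population (4.68%). Lyz2 passed for GFPhigh against GFP- over both genotypes (8.87%), and Elane and Prtn3 for Nras against wild-type over both populations (7.78%). Elane was above the array's median on Nras arrays alone, so it came into these tests through that genotype. Of the 9 measured genes 7 had a log2 fold change above 0 and 2 below it for Nras against wild-type over both populations, with a median of 0.38, beside -0.15 over all tested genes. For GFPhigh against GFP- over both genotypes 8 were above 0 and 1 below, with a median of 0.54 beside 0.018. Without the uneven arrays these medians were -0.14 and -0.060.

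**Figure D1:**
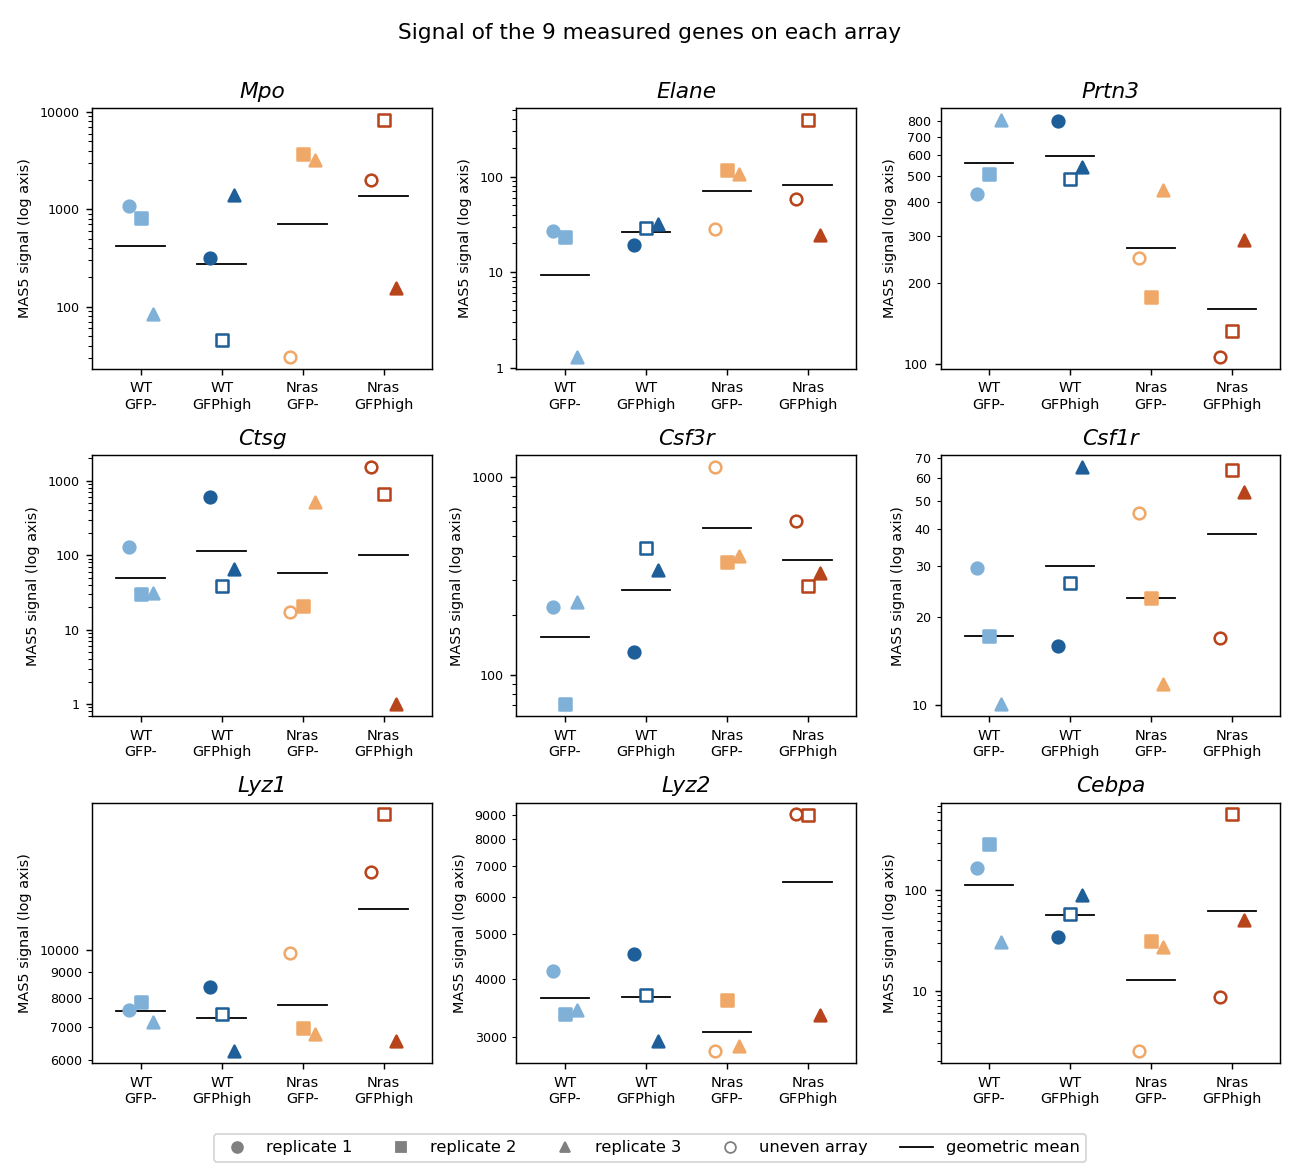
MAS5 signal (log axis) of each of the 9 measured genes on the 12 arrays, by group, with WT for wild-type. Each point is 1 array, its shape the replicate number, open points are the 4 uneven arrays and the line is the geometric mean of 3. Mpo and Elane have 4 of 6 Nras points above all wild-type points, and Prtn3 has 5 of 6 below them. In each of these genes Nras and wild-type points still overlap over both populations. How many of all genes have as many points outside the wild-type range was not counted.

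Mpo encodes myeloperoxidase, the enzyme that makes hypochlorous acid in neutrophils. It read 1081.9, 810.8 and 83.7 in wild-type GFP- replicates 1, 2 and 3, and 315, 45.6 and 1402.9 in wild-type GFPhigh. In Nras GFP- it read 30.6, 3690.1 and 3229.3, and in Nras GFPhigh 2023.3, 8224.3 and 156.1. So 4 Nras arrays, 2 of each population, read above every wild-type array, while Nras GFP- replicate 1 read below all of them. The share of all genes with as many arrays outside the wild-type range was not counted. Within each group the signals spread over more than 10-fold, and all 4 groups overlapped. The log2 fold change of Nras against wild-type over both populations was 1.55 ± 1.38 (SE), with a 95% confidence interval from -1.43 to 4.53 and a limma adjusted p of 0.801. In GFPhigh cells alone it was 2.34 ± 1.95, and 5.09 in replicates 1 and 2 alone, the arrays of high Xist. Without the uneven arrays it was -2.09, a value in which replicate 3 alone (156.1) stands for Nras GFPhigh. For GFPhigh against GFP- over both genotypes it was 0.16 ± 1.38, and -1.90 without the uneven arrays.

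Elane encodes neutrophil elastase, a serine protease of the same granules. It read 27.2, 23.3 and 1.3 in wild-type GFP- replicates 1 to 3, 19.4, 29 and 32.2 in wild-type GFPhigh, 28.4, 118.3 and 106.6 in Nras GFP-, and 57.7, 388.2 and 24.7 in Nras GFPhigh. The arrays above the wild-type range were the same 4 as for Mpo, and the remaining Nras arrays lay within it. The signal was above the array's median on 4 of 12 arrays, and these were the same 4 Nras arrays. Elane thus passed the filter only through the genotype in which it was high, which limits its tests of genotype. Every wild-type value is a low signal, whose fold change depends on whether a pseudocount is added. Nras and wild-type GFP- cells did not overlap, though only by the gap between 28.4 and 27.2, and 10.8% of all genes were separated in that comparison. The log2 fold change there was 2.92 ± 1.34 (SE, limma adjusted p = 0.983), with 0.62 under a pseudocount of 100, 1.20 in replicates 1 and 2 alone and 1.50 without wild-type GFP- replicate 3. Over both populations it was 2.28 ± 0.95, with an interval from 0.24 to 4.33 (adjusted p = 0.609), and in GFPhigh cells 1.64 ± 1.34.

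Prtn3 encodes proteinase 3, a close relative of elastase and its neighbour on chromosome 10, with no protein-coding gene between them. It read 430.4, 511.5 and 809.1 in wild-type GFP- replicates 1 to 3 and 805.5, 490.3 and 539.6 in wild-type GFPhigh. The signals were 248.4, 177.3 and 443.8 in Nras GFP- and 106.1, 132.2 and 289 in Nras GFPhigh. Here 5 of the 6 Nras arrays read below every wild-type array, and Nras GFP- replicate 3 lay just above the lowest of them. The share of all genes with as many arrays below the wild-type range was not counted. Prtn3 was above the array's median on all 12 arrays, and its replicates lay closer together than those of Mpo, Elane or Ctsg. Nras and wild-type GFPhigh cells did not overlap, as in 12.5% of all genes, with a log2 fold change of -1.91 ± 0.69 (SE, interval -3.39 to -0.42, limma adjusted p = 0.524). Over both populations it was -1.48 ± 0.49 (interval -2.53 to -0.43, adjusted p = 0.579), and in GFP- cells -1.06 ± 0.69 (adjusted p = 0.983). The value over both populations was below 0 in all 23 alternative settings, from -1.78 in replicates 1 and 2 alone to -1.10 without the uneven arrays. Its adjusted p ran from 0.239 to 0.880. Several settings could not move this fold change, which stayed at -1.48. These were no filter, the replicate block, no trend and the settings on probe sets.

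The signals of these neighbours ran in opposite directions over the arrays, with a Pearson r of -0.69 between Elane and Prtn3 and of 0.69 between Mpo and Elane, described over 12 arrays that share their scaling and groups. Elane was above the array's median on only 4 of them, so both values rest partly on low signals. Because of that contrast the promoters of the neighbours are shown, the 120 bases before the RefSeq start site in build GRCm38.p6, 5′ to 3′ on the plus strand. Capitals mark matches to GAGGAA, a core of the sites bound by PU.1, the factor encoded by Spi1.
Elane, chr10:79886192-79886311: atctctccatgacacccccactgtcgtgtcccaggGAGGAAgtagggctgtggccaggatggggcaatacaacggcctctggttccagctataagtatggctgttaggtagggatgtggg
Prtn3, chr10:79879547-79879666: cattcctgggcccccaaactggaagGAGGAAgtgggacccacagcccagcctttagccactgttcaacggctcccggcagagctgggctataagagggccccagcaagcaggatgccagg
The match begins 85 bases before the start in Elane and 95 bases before it in Prtn3, on the same strand. Promoters of 8 of the 10 genes were found in the table, and their 250 bases before the start were searched on both strands for GAGGAA, for TTNNGCAA (C/EBP-type) and for TGNGGT (RUNX-type), with no overlap between matches. GAGGAA was in 5 of the 8 (Mpo, Elane, Prtn3, Ctsg and Csf3r) and in 23.3% of all 32851 promoters. TGNGGT was in 3 (Ctsg, Csf3r and Lyz2) and in 40.1% of all, and TTNNGCAA in Lyz1 alone and in 9.6% of all. A match describes letters and is no evidence of binding.

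Ctsg encodes cathepsin G, the last serine protease of the set. Its signals were 129.1, 29.6 and 30.7 in wild-type GFP- replicates 1 to 3, 595.5, 38.8 and 65.6 in wild-type GFPhigh, 17, 21 and 514.3 in Nras GFP-, and 1513.5, 661.3 and 1 in Nras GFPhigh. The highest signals were in Nras GFPhigh replicates 1 and 2 and the lowest in replicate 3 of the same group. Ctsg was above the array's median on only 5 of the 12 arrays, so its fold changes rest largely on low signals. Between Nras and wild-type over both populations the log2 fold change was 0.0079 ± 1.63 (SE, interval -3.51 to 3.53, limma adjusted p = 0.999), an interval that leaves a large change either way possible. For GFPhigh against GFP- over both genotypes it was 1.02 ± 1.63, and 3.51 in replicates 1 and 2 alone (adjusted p = 0.481). Without the uneven arrays it was -2.34, a value in which the signal of 1 in replicate 3 alone stands for Nras GFPhigh. No group was separated from another in Mpo or Ctsg, the genes of widest spread.

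The lysozyme genes Lyz1 and Lyz2 encode near-identical enzymes that cleave bacterial cell walls, Lyz2 in macrophages and granulocytes and Lyz1 chiefly in Paneth cells of the gut. They are neighbours on chromosome 10 with no protein-coding gene between them. Lyz2 and the Lyz1 probe set of highest signal were above the array's median on all 12 arrays, but the Lyz1 probe set that carries no mark of shared transcripts was so on only 6. Lyz2 read 4160.3, 3365 and 3436.9 in wild-type GFP- replicates 1 to 3, 4519.7, 3689.2 and 2943.5 in wild-type GFPhigh, and 2797.2, 3609.4 and 2875.4 in Nras GFP-. In Nras GFPhigh it read 9049.8, 9000.6 and 3343.6. Nras GFPhigh replicates 1 and 2, both uneven arrays, thus read about the same and above the other 10 arrays, while replicate 3 lay within the range of the other groups. The log2 fold change of Nras GFPhigh against Nras GFP- was 1.08 ± 0.35 (SE, interval 0.32 to 1.83, limma adjusted p = 0.280), and those groups overlapped, whereas 12.9% of all genes did not overlap there. In wild-type cells it was 0.0096 ± 0.35 (interval -0.75 to 0.77), where 11.1% of all genes were separated and no member was.

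The test of the difference between those effects, the interaction, gave 1.07 ± 0.50 (SE, limma adjusted p = 0.956). Nras GFPhigh against wild-type GFPhigh had 0.82 ± 0.35 for Lyz2 (adjusted p = 0.585). Without Nras GFPhigh replicate 3 the value of Lyz2 in Nras GFPhigh against Nras GFP- was 1.55 and passed (adjusted p = 0.0214), in a fit that called 165 of 11979 genes in this comparison, against 0 with all arrays. In replicates 1 and 2 of every group alone it was 1.51 (adjusted p = 0.176). Without the uneven arrays, which leaves replicate 3 alone in the Nras GFPhigh group, the same value was 0.054.

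Lyz1 was read by its probe set of highest signal at 7576.3, 7860.5 and 7159.1 in wild-type GFP- replicates 1 to 3, 8403.9, 7411 and 6254.2 in wild-type GFPhigh, and 9834, 6962.8 and 6763.1 in Nras GFP-. In Nras GFPhigh it was 14320.3, 18694.8 and 6556.2, again high on replicates 1 and 2 and not on replicate 3. The log2 fold change of Nras GFPhigh against Nras GFP- was 0.64 ± 0.30 (SE, limma adjusted p = 0.411), of Nras against wild-type in GFPhigh 0.72 ± 0.30 (adjusted p = 0.566), of GFPhigh against GFP- in wild-type -0.043 ± 0.30, and of the interaction 0.68 ± 0.42. Without Nras GFPhigh replicate 3 the first of these was 1.08 (adjusted p = 0.0263) and the second 1.16 (adjusted p = 0.0414), where 165 and 17 of 11979 genes passed in these comparisons. Without the uneven arrays they were -0.066 and -0.15.

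That probe set carries the suffix _x_at, given to probe sets that may bind several transcripts, as does another, which read 5724.3 to 18838.5. The remaining probe set, with no such suffix, read 49.8 to 237.7, and was highest in Nras GFPhigh replicate 2. Over the 12 arrays the log2 signals of the chosen Lyz1 probe set had a Pearson r of 0.87 with Lyz2 and 0.67 with the probe set without the suffix. How much of the Lyz1 signal came from Lyz2 transcripts was not tested. On the Lyz1 probe set without the suffix the log2 fold change of Nras GFPhigh against Nras GFP- was 0.79, and in wild-type cells 0.49.

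How alike these genes are is visible in the DNA before their start sites, of which 150 bases are shown from RefSeq in GRCm38.p6, 5′ to 3′ on the minus strand. Capitals mark the bases that differ when the sequences are set side by side without gaps.
Lyz1, chr10:117292869-117293018: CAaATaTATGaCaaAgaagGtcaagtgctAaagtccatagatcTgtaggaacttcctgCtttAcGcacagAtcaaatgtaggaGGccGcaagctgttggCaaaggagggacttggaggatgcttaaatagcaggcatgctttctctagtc
Lyz2, chr10:117282273-117282422: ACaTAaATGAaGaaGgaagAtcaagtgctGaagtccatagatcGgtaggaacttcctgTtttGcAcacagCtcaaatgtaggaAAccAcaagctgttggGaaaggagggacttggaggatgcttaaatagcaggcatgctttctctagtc
Of these 150 bases 129 are identical (86%), and the last 50 before the start are the same in both genes. In the whole 250 bases 152 are identical (60.8%) without gaps.

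Csf3r encodes the receptor of granulocyte colony-stimulating factor, the cytokine that drives neutrophil production. It read 220.8, 70.9 and 233.4 in wild-type GFP- replicates 1 to 3, 129.3, 437.3 and 339.3 in wild-type GFPhigh, 1118.2, 370.6 and 398.1 in Nras GFP-, and 595.5, 279.4 and 327.6 in Nras GFPhigh. All 3 Nras GFP- arrays read above all 3 wild-type GFP- arrays, and the highest, replicate 1, is an uneven array. In that comparison 10.8% of all genes were separated, in either direction. The log2 fold change there was 1.83 ± 0.80 (SE, interval 0.10 to 3.56, limma adjusted p = 0.983). In GFPhigh cells it was 0.50 ± 0.80, and over both populations 1.17 ± 0.57 (interval -0.056 to 2.39, adjusted p = 0.654). The value over both populations was above 0 in all 23 alternative settings, from 0.84 to 1.57. No filter, the replicate block, no trend and the settings on probe sets could not move it.

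Csf1r encodes the receptor of macrophage colony-stimulating factor, on which monocytes and macrophages depend. Its probe set of highest signal read 10.1 to 29.5 in wild-type GFP-, 15.9 to 65.1 in wild-type GFPhigh, 11.8 to 45.6 in Nras GFP- and 17 to 63.6 in Nras GFPhigh. It was above the array's median on 1 array, so the values are low signals with no clear order of the groups. Between Nras and wild-type over both populations its log2 difference was 0.40, and 0.069 and 0.79 on the remaining probe sets, without a test. The probe set with no shared suffix read 340.2 in Nras GFP- replicate 3, 89.1 in wild-type GFPhigh replicate 3 and at most 23.1 on the other 10 arrays.

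Cebpa encodes C/EBP alpha, the transcription factor without which granulocyte and monocyte progenitors do not form. Signals were 166.2, 287.7 and 30.9 in wild-type GFP- replicates 1 to 3, 34.5, 58.7 and 91 in wild-type GFPhigh, 2.5, 31.2 and 27 in Nras GFP-, and 8.7, 573.5 and 50.3 in Nras GFPhigh. The lowest and the highest signal were both on uneven arrays, and only 4 arrays were above their median. Nras GFP- and wild-type GFP- cells overlapped by the value of wild-type replicate 3, with a log2 fold change of -3.15 ± 1.50 (SE, interval -6.39 to 0.091, limma adjusted p = 0.983), and -0.99 with a pseudocount of 100. Nras GFPhigh against Nras GFP- had 2.30 ± 1.50 (adjusted p = 0.564), and the interaction was 3.30 ± 2.12 (adjusted p = 0.956).

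**Figure D2:**
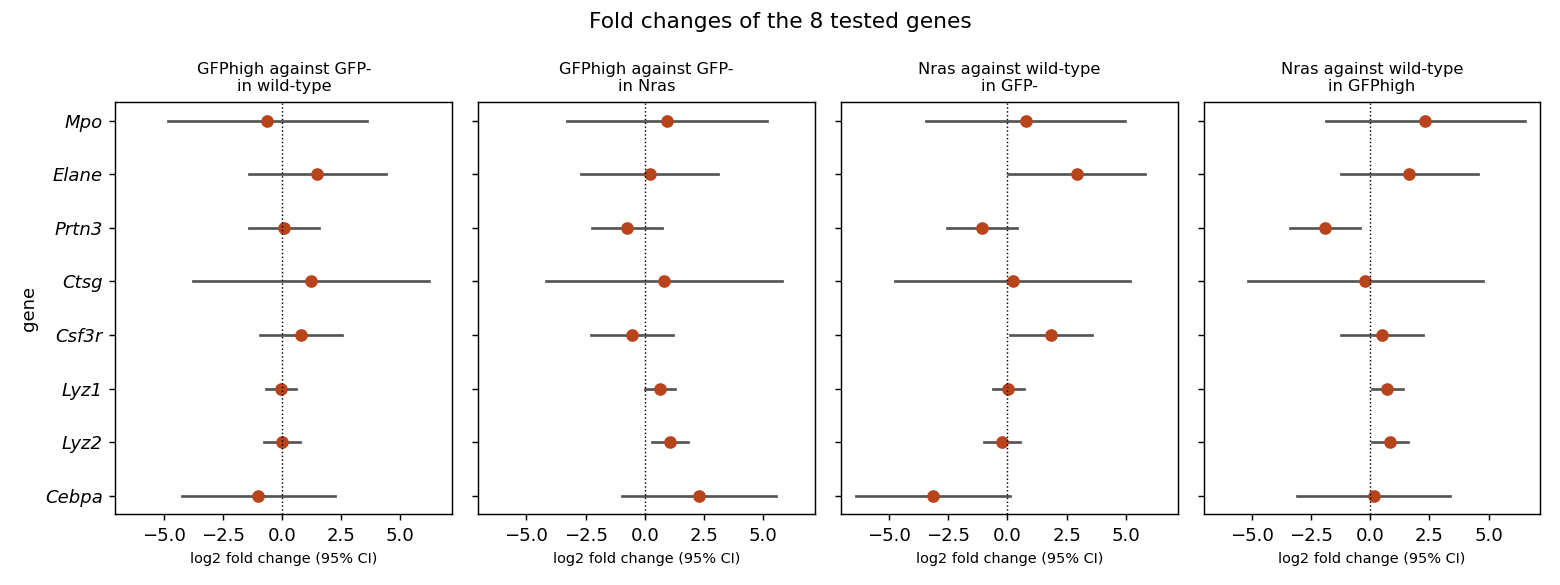
Log2 fold change (points) and its 95% confidence interval from limma (lines) of the 8 tested genes in the 4 comparisons of single groups. The intervals of Mpo, Ctsg, Elane and Cebpa are several log2 units wide, and those of Lyz1 and Lyz2 are the narrowest. For Nras against wild-type the interval of Prtn3 in GFPhigh cells lies below 0. Those of Elane and Csf3r in GFP- cells and of Lyz1 and Lyz2 in GFPhigh cells lie above it. So does that of Lyz2 for Nras GFPhigh against GFP-. The intervals are not adjusted for the number of genes.

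Markers of maturing neutrophils, which make secondary granules and later products, moved with part of these signals. The summed signal of 11 such markers, S100a8, S100a9, Ltf, Camp and Ngp among them, was 47861.5 and 61979 in Nras GFPhigh replicates 1 and 2, where 10 and 11 of the 11 were above the array's median. On the other 10 arrays it was 668.5 to 14128.9, with 2 to 8 markers above the median. Lyz2, the chosen Lyz1 probe set and Ctsg also had their highest signals in Nras GFPhigh replicates 1 and 2. Mpo (8224.3) and Elane (388.2) were highest on replicate 2 of that group. The part of maturing cells in these signals was not tested. Mpo and Elane differed from that pattern in Nras GFP- replicates 2 and 3, where Mpo read 3690.1 and 3229.3 and Elane 118.3 and 106.6 while the summed markers were 668.5 and 1389.3. Conversely wild-type GFP- replicate 3 had a marker sum of 14128.9 with Mpo at 83.7 and Elane at 1.3. Monocyte and macrophage markers, 8 in number, summed to 4426.3 and 2982.3 in Nras GFPhigh replicates 1 and 2 and to 256.7 to 1403.5 elsewhere. On both of these arrays 4 of the 8 were above the array's median, as in wild-type GFP- replicate 1 and wild-type GFPhigh replicates 1 and 3.

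Markers of mast cells and basophils, granulated cells that carry the receptor for immunoglobulin E, had their highest sums, though not each marker its highest signals, on the same 4 arrays as Mpo and Elane. The summed signal of the 6 measured markers was 569.6 and 415.4 in Nras GFP- replicates 2 and 3 and 523.6 and 994.6 in Nras GFPhigh replicates 1 and 2, against 79.6 to 277.4 on the other 8 arrays. On those 4 arrays 4, 1, 3 and 3 of the 6 were above the array's median, and 0 to 2 elsewhere. Fcer1a, a chain of that receptor, read 184.5, 82.6, 257.6 and 137.5 on them and at most 2.9 elsewhere. No other measured marker of the list was highest on all 4. Cpa3, a mast cell carboxypeptidase, read 234.2, 215.8, 31.2 and 91 there but 222 in wild-type GFP- replicate 1. Cma1 read 55, 23.1, 99 and 88.2 there but 169 in wild-type GFPhigh replicate 1. The part of such cells in the Mpo and Elane signals was not tested. The sums were 8274.9 to 16248 for erythroid markers, 902.6 to 4770.5 for megakaryocyte markers, 332.7 to 3723.8 for B lymphoid markers and 57.5 to 818 for T and NK markers, the last highest in Nras GFPhigh replicates 1 and 2.

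**Figure D3:**
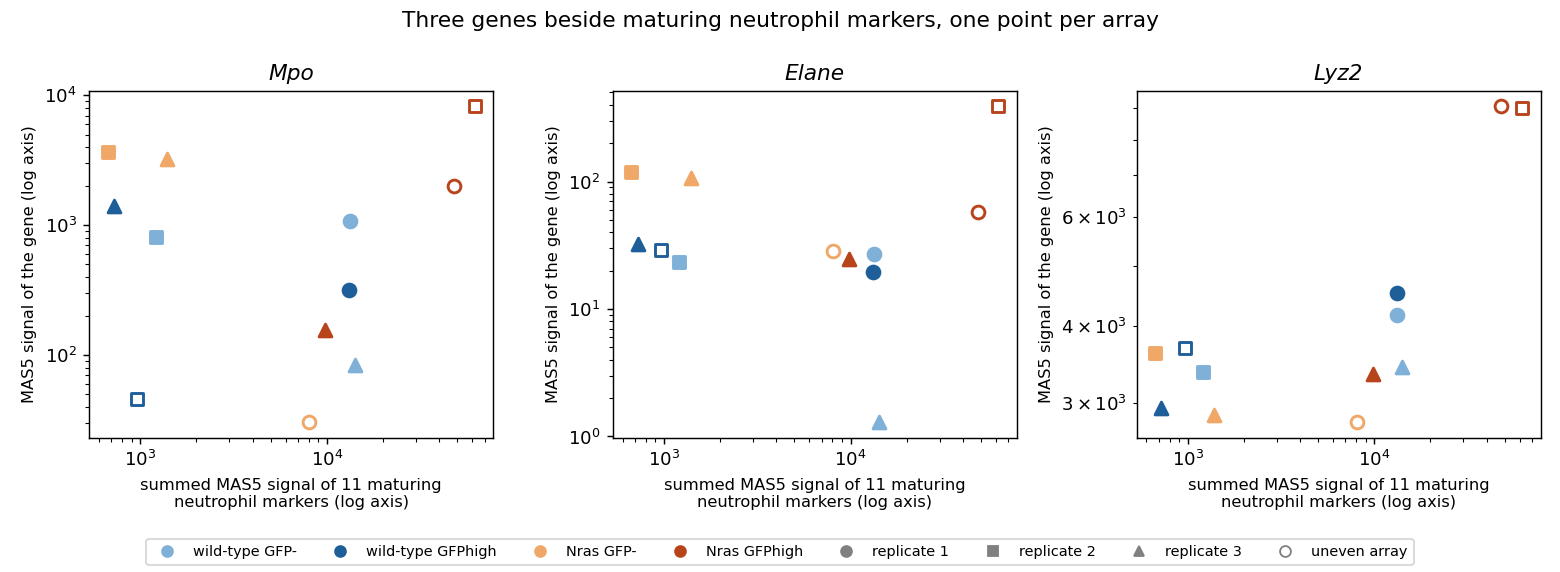
Signal of Mpo, Elane and Lyz2 against the summed signal of 11 maturing neutrophil markers, both on log axes in MAS5 units, with 1 point per array and open points for the uneven arrays. Lyz2 is highest on the arrays with marker sums of 47861.5 and 61979, whereas Mpo and Elane are also high in Nras GFP- replicates 2 and 3 at sums of 668.5 and 1389.3.

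Genes that work with the granule enzymes were read from lists chosen with earlier results of these data known. Of 10 measured granule and protease partners, 8 were tested and none passed in any comparison at an adjusted p under 0.05. Between Nras and wild-type over both populations 8 of the 10 were higher, with a median log2 fold change of 0.39 beside -0.15 over all tested genes. Those of smallest p were Gusb, a lysosomal glucuronidase, at -0.73 ± 0.49 (SE), Ctsc, the cathepsin that activates the granule proteases, at -0.49 ± 0.37, Srgn, the proteoglycan that packs granules, at 0.14 ± 0.11, and Ctsd, a lysosomal aspartic protease, at 0.38 ± 0.35. For GFPhigh against GFP- over both genotypes Serpinb1a, an inhibitor of elastase, cathepsin G and proteinase 3, had -1.85 ± 0.81 (limma adjusted p = 0.551), Nkg7, a granule membrane protein, -2.89 ± 1.08 (adjusted p = 0.522), Gusb -1.18 ± 0.49 (adjusted p = 0.545) and Fcnb, a ficolin, 1.85 ± 1.05.

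Of 16 myeloid transcription factor genes 15 were tested and none passed. Between Nras and wild-type over both populations Egr1, an early response factor, had 0.47 ± 0.18 (SE, limma adjusted p = 0.597), Fli1, an ETS factor, -0.66 ± 0.30 (adjusted p = 0.633), Id2, an inhibitor of helix-loop-helix factors, -1.41 ± 0.99 and Gata2 0.38 ± 0.28. Of the other factors, Spi1, which encodes PU.1, read 83.2 to 221.1 over the 12 arrays, and Runx1 2213.3 to 5462.2. Gfi1, a repressor that also acts in neutrophil development, had 3.10 ± 0.57 for GFPhigh against GFP- over both genotypes (adjusted p = 0.161), Egr1 0.59 ± 0.18 (adjusted p = 0.439), Cebpb, a C/EBP factor of emergency granulopoiesis, 1.05 ± 0.57 and Myb -0.24 ± 0.13. Of 15 cytokine receptor and surface genes 13 were tested and none passed. Their smallest p values between Nras and wild-type over both populations were those of Fcgr3, a receptor for immunoglobulin G, at 1.99 ± 0.85 (adjusted p = 0.609), and of Csf2ra, the receptor chain for the granulocyte and macrophage colony-stimulating factor, at -1.79 ± 0.83 (adjusted p = 0.645). Csf2rb, its signalling partner chain, had -2.50 ± 1.57 and Ifngr1, an interferon gamma receptor chain, -0.70 ± 0.50. For GFPhigh against GFP- over both genotypes Cd34, a surface protein of progenitors, had -2.27 ± 0.63 (adjusted p = 0.407), Flt3, a receptor of multipotent progenitors, -2.13 ± 0.97, Csf2rb2 1.89 ± 0.94 and Csf2ra 1.11 ± 0.83.

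The mean log2 deviation of Mpo, Elane, Prtn3 and Ctsg was highest in Nras GFPhigh replicate 2 (2.27) and Nras GFP- replicate 3 (1.81) and lowest in Nras GFPhigh replicate 3 (-2.22) and wild-type GFP- replicate 3 (-1.90). The lowest value rests on the Ctsg signal of 1 on that array. The 5 tested genes whose log2 signal followed it most closely over the 12 arrays were Eogt (Pearson r of 0.87), Dpy30 (0.83), Has1 (0.82), Atp8b4 (0.82) and Ndufb9 (0.81). These are descriptions over arrays that share their scaling, and none of the 5 was chosen for its function. Prtn3 had a Pearson r of -0.44 with Mpo, -0.69 with Elane and -0.17 with Ctsg, so the mean is no signal common to all 4 genes. Has1 read 16.1 to 211.3 and Atp8b4 2.1 to 673.

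**Figure D4:**
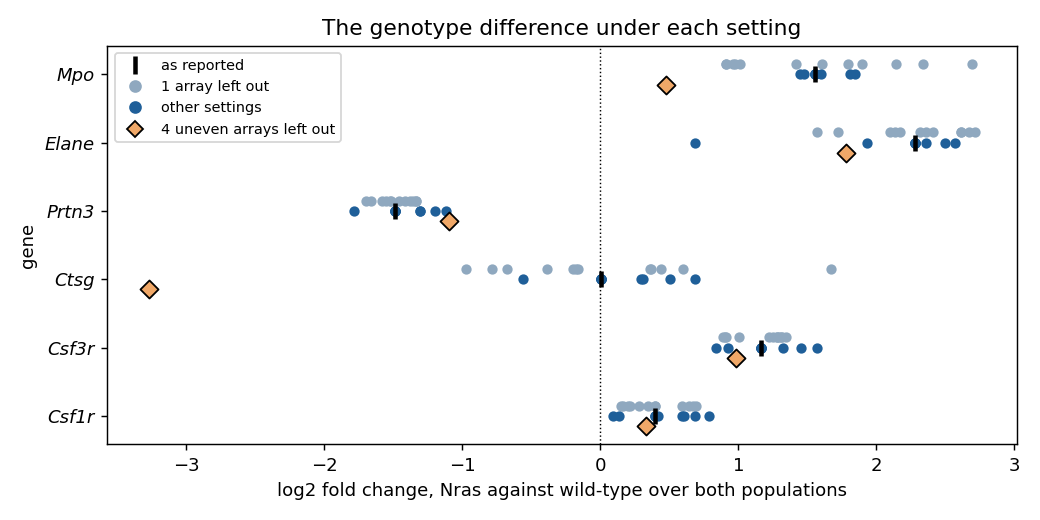
Log2 fold change of Nras against wild-type over both populations for 6 genes, as reported and under each of 23 alternative settings, with the 4 uneven arrays left out shown as a diamond. All points of Prtn3 lie below 0 and all points of Mpo, Elane, Csf3r and Csf1r above it, while those of Ctsg lie on both sides, from -3.27 to 1.67. Some settings, such as no filter, the replicate block and no trend, cannot move a point.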

How the data were processed

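The authors deposited 1 intensity per probe set and array, a linear MAS5 signal per the submitters' processing notes. The version of MAS5 is not given in the sources used here, and no detection calls were used. Trimmed by 2% of probe sets at each end, the mean signal was 500 on every array. The 3 values at 0 were raised to 0.1 before log2 was taken. Of 45101 probe sets 34945 had exactly 1 gene symbol.

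A single limma fit, with 4 group means and an intensity trend, covered 12 arrays and 12083 genes. It gave 7 comparisons with two-sided p values, adjusted by Benjamini-Hochberg, and SE is limma's moderated standard error. On simulated data with independent noise, the check required only that the size of added changes was recovered. The share of such changes called is not given here. The number of arrays limits the precision. The labels call the replicates biological without saying from which animals they came, so p values measure the spread between these samples.

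The members and lists were chosen with earlier results of these data known. Named genes were the 10 members, at most 4 genes of smallest p per list and comparison discussed, and the 5 genes of most similar pattern. Spi1, Runx1, Gem and marker genes are named besides them, after their values were seen. Alternatives were array weights, no filter, quantile normalization, median centring, a pseudocount of 100, means over probe sets, no probe sets whose suffix marks several transcripts, a replicate block, no trend, no uneven arrays, only replicates 1 and 2, and each array left out. Promoters are from RefSeq (GRCm38.p6). Software was R 4.3.3 with limma 3.58.1, and Python 3.11.15 with numpy 2.4.6, pandas 2.3.3 and, for figures, matplotlib 3.10.9.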

Additional observations from a re-analysis of the deposited data

How the results depend on the processing

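The reported fold changes of the members kept their direction in 563 of 598 combinations of result and alternative, and turned in 35. No filter, the replicate block and no trend cannot change a fold change, so direction was kept there by construction. No member passed under 22 of the 23 alternatives, the replicate block (0 members in each comparison) among them. Same-numbered samples had correlations of -0.044 to 0.15, over 0.1 in 3 of 18 pairs, so numbers were not taken as pairs. All 3 of these pairs are of replicate 3, which Xist and Eif2s3y set apart from replicates 1 and 2 in every group. The exception was leaving out Nras GFPhigh replicate 3: with each array left out in turn, 0 to 2 members passed in Nras GFPhigh against GFP- and 0 to 1 in Nras against wild-type in GFPhigh. Without that array 165 and 17 of 11979 genes passed in these comparisons, against 0 in both with all arrays. The cause of the changes below was not tested. Leaving out 1 array put the members' median between -0.31 and 1.08 for GFPhigh against GFP- in Nras, between -0.19 and 0.81 for Nras against wild-type in GFP-, between 0.41 and 1.16 for the same in GFPhigh, and between -0.71 and 1.12 for the interaction. It put Mpo for GFPhigh against GFP- over both genotypes between -0.98 and 0.95, Ctsg for Nras against wild-type over both populations between -0.97 and 1.67, and Csf3r for Nras against wild-type in GFPhigh between -0.023 and 0.86. In wild-type GFPhigh against GFP- it put Lyz1 between -0.14 and 0.068 and Lyz2 between -0.14 and 0.17.

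Without the uneven arrays, which leaves 1 Nras GFPhigh array that is assumed to vary like the other groups, the members' median was -0.066 for GFPhigh against GFP- in Nras, -0.15 for Nras against wild-type in GFPhigh, -0.060 for GFPhigh against GFP- over both genotypes and -0.14 for Nras against wild-type over both populations. Mpo was then at -1.90 for GFPhigh against GFP- over both genotypes and -2.09 for Nras against wild-type in GFPhigh, where Elane was at -0.017, Lyz1 at -0.15 and Lyz2 at -0.13. Ctsg was at -3.27 for Nras against wild-type over both populations and -2.34 for GFPhigh against GFP- over both genotypes, and Lyz1 at -0.066 for GFPhigh against GFP- in Nras and -0.012 for the interaction. With array weights the medians were -0.28 for GFPhigh against GFP- in Nras and -0.71 for the interaction, Mpo and Ctsg for GFPhigh against GFP- over both genotypes -0.45 and -0.32, Ctsg for Nras against wild-type over both populations -0.56, and Lyz2 for wild-type GFPhigh against GFP- -0.065. Quantile normalization gave medians of 0.18 for GFPhigh against GFP- in Nras, 0.74 for Nras against wild-type in GFP- and -0.86 for the interaction, and -0.045 for Lyz2 in wild-type GFPhigh against GFP-. Median centring gave 0.82 for Nras against wild-type in GFP-, -0.70 for the interaction, -0.0073 for Mpo in GFPhigh against GFP- over both genotypes and 0.11 for Lyz1 in wild-type GFPhigh against GFP-. That value of Lyz1 was 0.13 as a mean over probe sets, 0.49 with no shared probe sets and 0.032 in replicates 1 and 2 alone. With replicates 1 and 2 alone the medians were 1.37 for GFPhigh against GFP- in Nras, 1.05 for Nras against wild-type in GFPhigh and 1.38 for the interaction, which was 0.60 with a pseudocount of 100. Signals under the array's median, as most of Elane, Ctsg, Cebpa and Csf1r, limit what the fold changes can show.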

Other observations

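Other genes of the granule partner list differed in pattern, and some were high on some of the arrays with high Mpo and Elane, and not on others. Ms4a3, a membrane protein of granulocyte and monocyte progenitors, read 870.2 in Nras GFPhigh replicate 1, 250.4 in wild-type GFP- replicate 3 and at most 66.3 on the other 10 arrays. Cst7, a cathepsin inhibitor, read 594.6 in Nras GFPhigh replicate 2 and at most 69.2 elsewhere. The ficolin gene Fcnb had 399.6 and 127.8 in replicates 2 and 1 of Nras GFPhigh and at most 115 elsewhere. In Nras GFP- replicates 2 and 3, where Mpo was high, Ms4a3 read 42.9 and 45.1, Cst7 3.1 and 45.2, and Fcnb 6.9 and 7.8. Gusb read 134 and 280.7 in Nras GFPhigh replicates 1 and 2, the lowest of the 12 arrays. Serpinb1a read 334.6 and 464.2 there, against 1111 to 1350.3 in wild-type GFP- but 275, 18.2 and 294.6 in wild-type GFPhigh. Nkg7 read 5.7 and 10.8 there, 414.2 in Nras GFP- replicate 3, and 22.1, 3.7 and 3.9 in wild-type GFPhigh. All these genes were chosen for mention after their values were seen, and no test was made.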
